A study of Mus musculus with 38 samples.

Results

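Vip, Nms, Prok2, Grp, Vipr2, Prokr2, Lhx1, Six6, Rgs16 and Syt10 are peptides, peptide receptors and identity genes of the suprachiasmatic nucleus (SCN), the circadian clock of the hypothalamus. Each was read from its probe set on Affymetrix Mouse Gene ST arrays, taking only probe sets with 1 gene symbol and, for a gene with several, the one with the highest mean over all arrays. The 10 genes, each with 1 such probe set, are 10 of 19937 genes with a symbol and of 34760 probe sets measured. The study asked how mutant huntingtin (HTT) changes the hypothalamic transcriptome, with hypothalamic RNA of 38 female FVB/N mice and 1 array per mouse.

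In the AAV experiment, 8-week-old mice were injected in the hypothalamus on both sides with a recombinant adeno-associated viral vector of serotype 5 and were examined 4 weeks later, at 12 weeks of age. The 18Q group (5 arrays) received an 853 amino acid HTT fragment with 18 CAG repeats, a wild-type length. The 79Q group (8 arrays) received the same fragment with 79 CAG repeats, a mutant length. Both fragments were driven by the human Synapsin-1 promoter, which is active in neurons. The WT control group (5 arrays) was uninjected and of the same age, and no group received a vector without HTT, so that vector, injection and HTT fragment cannot be told apart in a comparison with WT. The same WT control arrays served both comparisons. BACHD mice carry full-length human mutant HTT with 97 CAG repeats, expressed throughout the body, and were compared with WT littermates at 2 months (6 and 6 arrays) and at 10 months of age (5 BACHD and 3 WT arrays). The arrays are of the whole dissected hypothalamus, of which the SCN is a small nucleus. The time of day at collection was not given in the sources used here.

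The SCN sets the daily rhythm of the brain and body and is entrained by light through the retina. Its neurons carry a molecular clock of Period, Cryptochrome, Clock and Bmal1 proteins and keep in step with each other through peptides, above all VIP of the ventral core acting on the receptor VPAC2. Sleep and circadian disturbances are known in Huntington disease, and loss of VIP in the SCN has been described in its mouse models.

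The values are log2 intensities after Robust Multi-Array Averaging (RMA), so that a difference of 1 is a doubling of the signal, and 1 probe set's value cannot be set against another's. The paper does not say whether the AAV, 2 months and 10 months arrays were normalized together. Pairs of arrays shared up to 22 identical values within a set and 0 across sets. The sets may thus have been normalized separately, and levels are compared only within each set. The median value of an array lay between 7.38 and 7.46 in the AAV arrays, 7.16 and 7.41 at 2 months and 7.28 and 7.32 at 10 months. A gene is called changed where limma gave a Benjamini-Hochberg adjusted p under 0.05 over all probe sets. In this bulk tissue, fewer cells that express a gene and less RNA per cell cannot be told apart.

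Some arrays stood apart in markers of neighbouring tissue. A thalamus score was formed for each array as the mean log2 value of 8 thalamic marker genes, relative to the mean of the array set. In the AAV arrays 18Q replicate 3 (0.46) and 79Q replicates 6, 8 and 7 (0.36, 0.34 and 0.25) had the highest scores, and the other 14 arrays lay between -0.22 and 0.08. In the same 4 arrays the oligodendrocyte score was the highest (0.17 to 0.46) and the score of paraventricular and supraoptic genes the lowest (-0.87 to -0.30). At 2 months, 7 arrays lay at 0.13 to 0.97 and 5 at -1.02 to -0.72 in the thalamus score, with both genotypes at both levels. At 10 months it ran from -0.69 to 0.14 in WT and from -0.37 to 0.64 in BACHD. None of the 8 thalamic markers passed the adjusted threshold in any comparison. Microglia and interferon genes, by contrast, rose in both injected groups, with 7 of 9 measured microglia markers and 8 of 8 type I interferon genes called in each comparison with WT, and the ranges of both scores in the injected groups lay wholly above those of WT. Of all probe sets 1.81% were called higher in 18Q vs. WT and 1.49% in 79Q vs. WT.

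In the AAV experiment Vip, Nms and Grp had the largest differences of the 10 genes in 79Q vs. WT. Nms alone was called, and fell in 79Q. Vip showed the largest difference of means but also the largest spread, and Grp was lower in each 79Q array than in any WT control array. The promoters of Nms, of Vip and of Syt10, the gene most like Nms from array to array, are given here as the 250 bases before the transcription start from RefSeq (GRCm38.p6, in the direction of the gene). Capitals mark TGACG, the short form of the cAMP response element.
Vip (chr10:5638968-5639217, plus strand): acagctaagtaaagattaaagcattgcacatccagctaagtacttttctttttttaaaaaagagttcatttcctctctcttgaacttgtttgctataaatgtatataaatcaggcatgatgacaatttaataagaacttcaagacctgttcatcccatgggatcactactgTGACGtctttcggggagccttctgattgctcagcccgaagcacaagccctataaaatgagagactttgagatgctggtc
Nms (chr1:38938899-38939148, plus strand): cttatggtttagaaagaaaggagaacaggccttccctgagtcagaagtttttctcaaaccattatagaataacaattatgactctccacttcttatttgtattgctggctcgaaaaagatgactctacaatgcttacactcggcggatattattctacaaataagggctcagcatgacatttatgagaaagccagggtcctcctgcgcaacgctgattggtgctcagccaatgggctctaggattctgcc
Syt10 (chr15:89841861-89842110, minus strand): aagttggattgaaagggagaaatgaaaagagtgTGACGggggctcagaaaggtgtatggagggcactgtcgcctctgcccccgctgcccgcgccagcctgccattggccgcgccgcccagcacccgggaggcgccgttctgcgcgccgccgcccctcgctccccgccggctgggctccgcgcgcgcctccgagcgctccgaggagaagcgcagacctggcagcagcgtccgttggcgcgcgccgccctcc
The RefSeq promoter table held 9 of the 10 genes, all but Grp. TGACG, searched on both strands, lay 79 bases before the start of Vip and 217 before that of Syt10, and also 50 before that of Lhx1, each on the strand of the gene. Thus 3 of 9 of these windows held it, as did 17.8% of 32851 mouse promoter windows of the same length. The full element TGACGTCA, which contains TGACG, was in no window of these genes and in 1.55% of all windows. The E-box CACGTG, which is bound by CLOCK and BMAL1, stood once in the Prok2 window, 135 bases before the start, and in 6.02% of all windows. No window of these genes held the D-box TTATGTAA (0.819% of all windows) or the homeodomain core TAATTA (4.84%), and TATAAA was in those of Vip and Prok2 (12.4%). The windows differed in base composition, with a GC content of 38.4% for Vip, 42.8% for Nms and 72% for Syt10.

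Nms encodes neuromedin S, a peptide that in the brain is made mainly in the SCN. Its log2 values were 7.80, 8.01, 7.78, 7.99 and 7.74 in the WT control arrays. In 18Q they were 7.86, 7.06, 7.11, 7.58 and 7.70, and in 79Q they ran from 6.74 to 7.61 with a median of 7.09. No 79Q array reached the lowest WT control array, whereas the 18Q arrays overlapped with it. In 79Q vs. WT Nms fell by 0.72 on the log2 scale (SE 0.161, 95% CI -1.06 to -0.38), which is 0.606 of the WT signal, with a limma adjusted p = 0.0229 (exact permutation p = 0.00311, where 0.000777 is the smallest possible). In 18Q vs. WT the difference was -0.40 (SE 0.179, limma adjusted p = 0.352), and in 79Q vs. 18Q it was -0.32 (SE 0.161, adjusted p = 1.0). The call in 79Q depends on single arrays, and held in 16 of 18 fits that each left out 1 array. Leaving out WT control replicate 2 gave an adjusted p of 0.0736, and leaving out replicate 5 gave 0.0756. Without the 4 arrays of high thalamus score the difference was -0.52 (adjusted p = 0.149), and with the score as a covariate it was -0.62 (SE 0.119, adjusted p = 0.00844).

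Vip encodes vasoactive intestinal peptide, the synchronizing signal of the ventral core. The WT control values were tightly grouped, at 7.51, 7.76, 7.47, 7.63 and 7.78. The 18Q arrays lay at 7.62, 7.32, 6.42, 7.44 and 8.09, on both sides of the WT range. In 79Q the lowest was 6.17, the median 6.59 and the highest 7.49. The 79Q arrays fell on 2 levels, with replicates 1, 2 and 3 at 7.31 to 7.49 and the other 5 at 6.17 to 6.62. Of these 5, replicates 6, 7 and 8 had high thalamus scores, and replicates 4 and 5, at 6.62 and 6.45, had scores of -0.15 and -0.05, within the range of the WT controls. The difference from WT was -0.84 in 79Q (SE 0.250, 95% CI -1.37 to -0.32, limma adjusted p = 0.101, exact permutation p = 0.00544), with 8 of 8 arrays below the WT mean. It was -0.25 in 18Q (SE 0.277, adjusted p = 0.800), and -0.012 without 18Q replicate 3, the lowest array of that group in Vip and the highest of the AAV arrays in thalamus score. In 79Q vs. 18Q it was -0.59 (SE 0.250, limma adjusted p = 1.0, exact permutation p = 0.0987). Vip passed the threshold with the thalamus score as a covariate (-0.67, SE 0.155, adjusted p = 0.0332), without 18Q replicate 3 (adjusted p = 0.0419) and without 79Q replicate 3 (adjusted p = 0.0496), and was at -0.59 (adjusted p = 0.281) without the 4 arrays.

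Grp encodes gastrin-releasing peptide, made by light-responsive neurons of the SCN core and also by neurons elsewhere in the hypothalamus. It stood at 8.52, 8.59, 8.40, 8.68 and 8.58 in the WT control arrays and between 7.95 and 8.37, with a median of 8.19, in 79Q. The groups were thus apart by 0.032 at their nearest arrays. The 18Q arrays, at 8.30, 8.05, 8.22, 8.52 and 8.88, spanned both. The difference in 79Q vs. WT was -0.38 (SE 0.108, limma adjusted p = 0.0858, exact permutation p = 0.000777, the smallest possible) and in 18Q vs. WT -0.16 (SE 0.120, adjusted p = 0.664). Grp was called with dim probe sets removed (adjusted p = 0.0477), with the 18Q arrays left out of the fit (adjusted p = 0.0125) and without 18Q replicate 6 (adjusted p = 0.0166). Prok2, prokineticin 2, an output signal of the clock, had values of 6.54 to 6.82 in WT, 6.44 to 6.94 in 18Q and 6.34 to 6.60 in 79Q. Its difference was -0.15 in 79Q vs. WT (SE 0.0721, adjusted p = 0.373) and 0.039 in 18Q vs. WT (SE 0.0800, adjusted p = 0.914). All 8 of the 79Q arrays lay below the 18Q mean of Prok2, with a difference of -0.19 (SE 0.0721, limma adjusted p = 1.0, exact permutation p = 0.0280).

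**Figure D1:**
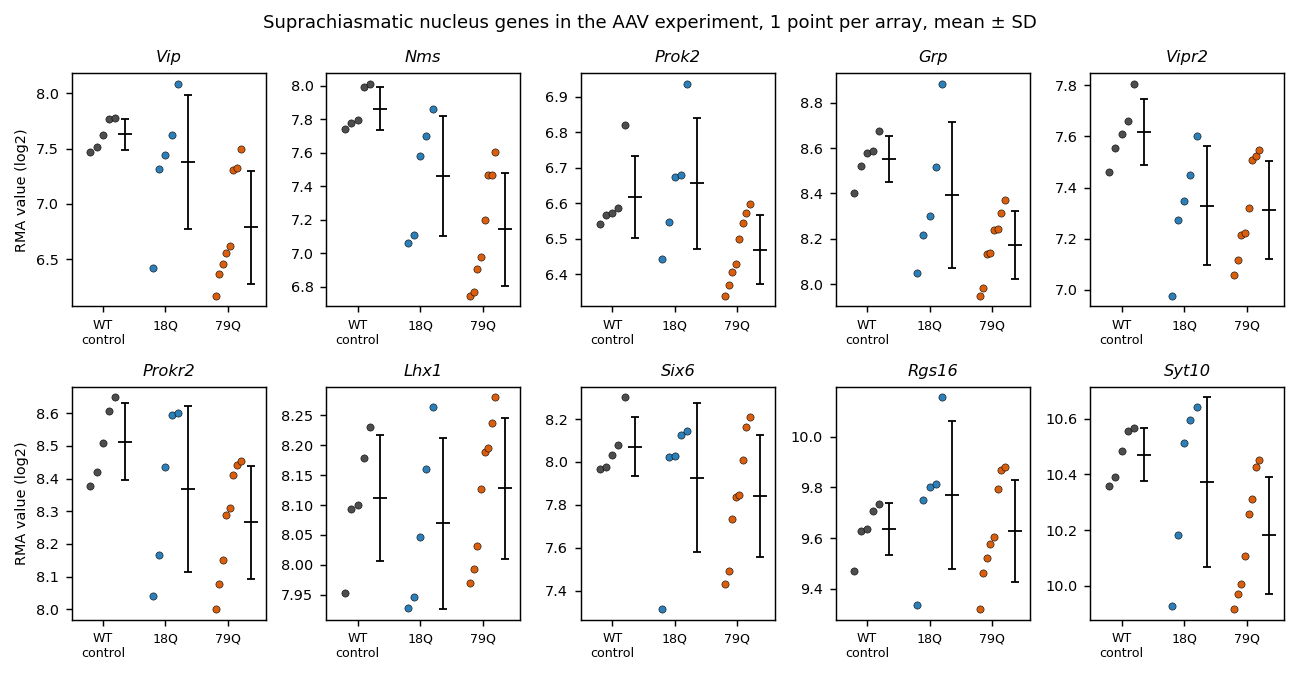
RMA log2 values (y-axis) of the 10 genes in the 3 AAV groups (x-axis: WT control, 18Q, 79Q), 1 point per array in order of its value, with the group mean ± SD beside it and a y-axis of its own for each gene. All 79Q arrays lie below all WT control arrays for Nms and Grp, the Vip values of 79Q fall on 2 levels, and Lhx1 and Rgs16 overlap between the 3 groups.

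Among the receptors, Vipr2 encodes VPAC2, through which VIP acts, and Prokr2 the receptor of prokineticin 2. Vipr2 ran from 7.46 to 7.81 in WT, from 6.98 to 7.60 in 18Q and from 7.06 to 7.55 in 79Q. Its difference from WT was nearly the same in both injected groups, -0.29 in 18Q (SE 0.113, limma adjusted p = 0.268) and -0.30 in 79Q (SE 0.102, adjusted p = 0.158), with all 5 and all 8 arrays below the WT mean. The 79Q vs. 18Q difference of Vipr2 was -0.016, with a 95% CI from -0.23 to 0.20. For Prokr2 the ranges were 8.38 to 8.65 in WT, 8.04 to 8.60 in 18Q and 8.00 to 8.46 in 79Q. The Prokr2 difference was -0.25 in 79Q vs. WT (SE 0.10, adjusted p = 0.263) and -0.15 in 18Q vs. WT (SE 0.111, adjusted p = 0.671).

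Of the regulators and identity genes, Lhx1 and Rgs16 had means near those of WT in 79Q, and Six6 and Syt10 had negative differences that did not pass the threshold. Lhx1, a LIM-homeodomain factor needed for the terminal differentiation of SCN neurons and their coupling, was at 7.95 to 8.23 in WT, 7.93 to 8.26 in 18Q and 7.97 to 8.28 in 79Q. Its difference in 79Q vs. WT was 0.016, and the 95% CI from -0.13 to 0.16 is among the narrowest of the 10 genes. Six6, a homeobox gene without which the SCN does not form, differed by -0.23 in 79Q (SE 0.146, adjusted p = 0.525) and by -0.14 in 18Q (SE 0.162, adjusted p = 0.803), each against WT. The 4 lowest of the 18 values of Six6, 7.31 to 7.73, were those of the 4 arrays with high thalamus scores, and without these arrays the 79Q difference was -0.06. Rgs16, which ends G protein signalling and sets the timing of cAMP in the dorsal SCN, differed by -0.0060 in 79Q vs. WT (95% CI -0.24 to 0.23) and by 0.14 in 18Q vs. WT (SE 0.125, adjusted p = 0.744). Syt10, synaptotagmin 10, a calcium sensor of vesicle release that is enriched in SCN neurons, lay at 10.36 to 10.57 in WT, 9.93 to 10.64 in 18Q and 9.92 to 10.45 in 79Q. The Syt10 difference was -0.29 in 79Q vs. WT (SE 0.117, limma adjusted p = 0.255) with 8 of 8 arrays below the WT mean, and -0.16 without the 4 arrays, which held its 4 lowest values. The part of the thalamic markers in these differences was not tested beyond these values.

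Counted together, 1 of the 10 genes was called lower in 79Q vs. WT, against 0.581% of all probe sets, and 6 of 10 had an unadjusted p under 0.05 and were lower (Vip, Nms, Grp, Vipr2, Prokr2 and Syt10), against 8.31% of all probe sets. Groups without overlap, with 79Q lower, were found for 2 of 10 and for 0.938% of all. In 18Q vs. WT 0 of 10 were called lower (0.308% of all probe sets), 2 had an unadjusted p under 0.05 and were lower (Nms and Vipr2, against 6.5% of all), and 0 had groups without overlap (1.5% of all). In 79Q vs. 18Q limma called 0 of 10, as for all probe sets (0.0%), and 2 had an unadjusted p under 0.05 and were lower (Vip and Prok2, against 2.66%). The median log2 fold change of the 10 genes was -0.27 in 79Q vs. WT, beside -0.016 over all probe sets, and -0.15 in 18Q vs. WT, beside -0.011. In 79Q vs. 18Q it was -0.16, beside -0.0071. The signs were negative for 9 of 10 genes in 79Q vs. WT (57.8% of all probe sets), 8 of 10 in 18Q vs. WT (55%) and 9 of 10 in 79Q vs. 18Q (54.6%). These genes vary together from array to array, so the counts are not those of independent genes.

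**Figure D2:**
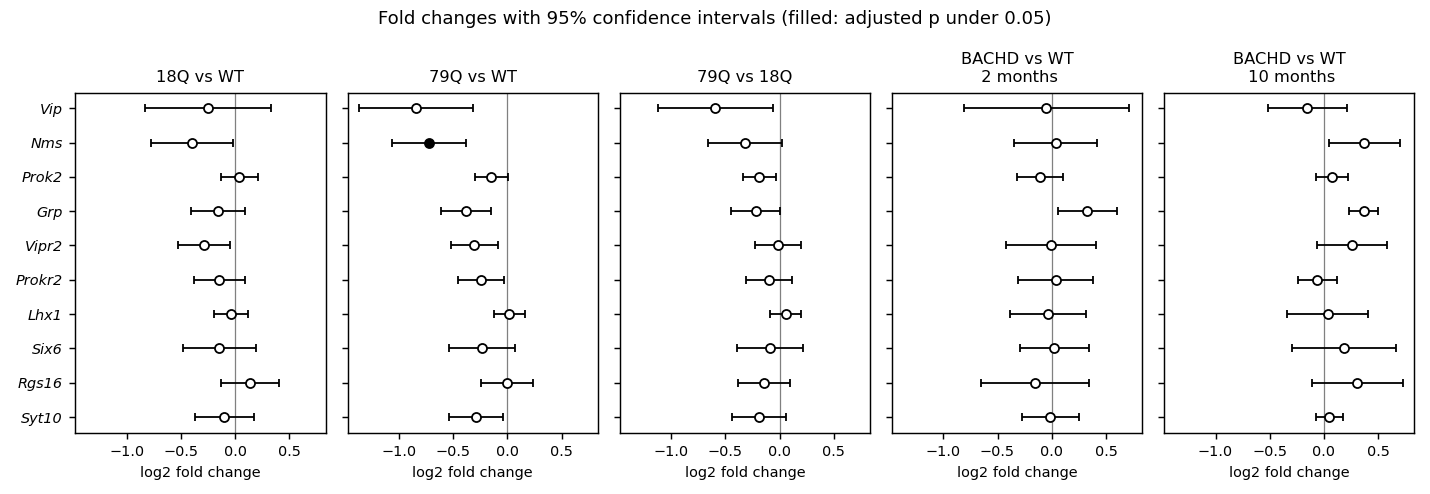
Log2 fold changes (x-axis) of the 10 genes (y-axis) in the 5 comparisons, with 95% confidence intervals from limma as bars and a filled point where the adjusted p is under 0.05. Nms in 79Q vs. WT is the filled point, and the intervals of Grp lie above 0 at both ages of BACHD.

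Other genes of the SCN were counted from lists. Over all probe sets, 0.581% were called lower and 1.49% higher in 79Q vs. WT. With an unadjusted p under 0.05, 8.31% were lower and 5.65% higher. Of 16 further SCN peptides, receptors and calcium-binding proteins, 2 were called lower and 0 higher in 79Q vs. WT, and 10 were lower with an unadjusted p under 0.05. Adcyap1r1, the PAC1 receptor that conveys the retinal peptide PACAP, fell by 0.22 (SE 0.0422, limma adjusted p = 0.00605), and Penk, the enkephalin precursor, fell by 0.29 (SE 0.0681, adjusted p = 0.0297). Avpr1a, a vasopressin receptor through which SCN neurons are coupled, was at -0.25 (SE 0.0652, adjusted p = 0.0553) and Tac1, which encodes substance P, at -0.22 (SE 0.0651, adjusted p = 0.0951). The median of the list was -0.22 in 79Q vs. WT, near that of the 10 genes, and -0.14 in 18Q vs. WT, where 0 of 16 were called (0.308% of all probe sets lower and 1.81% higher). Many of these 16 genes are also expressed widely outside the SCN.

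Of 11 regulators linked to the SCN, 0 were called in limma in 79Q vs. WT, and 4 were lower with an unadjusted p under 0.05 (8.31% of all probe sets). The smallest p belonged to Gpr176, an orphan receptor that sets the pace of the SCN (-0.23, SE 0.0633, adjusted p = 0.0740), and Rasd1, which modulates the response to light (-0.22, SE 0.0636, adjusted p = 0.0956). Of 21 core clock genes measured of 24 listed, 2 were called lower (0.581% of all probe sets) and 0 higher (1.49%). Per3 of the Period family fell by 0.15 (SE 0.0337, adjusted p = 0.0214), and Ciart, a repressor of CLOCK and BMAL1, fell by 0.33 (SE 0.0832, adjusted p = 0.0475). Per2 was at -0.16 (SE 0.0544, adjusted p = 0.159), and Dbp, a clock-driven transcription factor, at -0.14 (SE 0.0505, adjusted p = 0.183). The median of the clock list was -0.049. Clock genes are expressed in all regions of the hypothalamus and swing with the time of day.

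SCN neurons are GABAergic, and of 3 GABA neuron genes measured Gad1, which makes GABA, was called lower in 79Q vs. WT (fell by 0.21, SE 0.0493, adjusted p = 0.0275). Of all probe sets 0.581% were called lower in this comparison. Gad2 was at -0.25 (SE 0.0702, adjusted p = 0.0871). These values are of the whole hypothalamus and cannot be assigned to SCN neurons. No activity-regulated gene of 12 was called in limma in 79Q vs. WT, and 3 (against 5.65% of all probe sets) had an unadjusted p under 0.05 and were higher. Among these, Fos, the gene used to mark the SCN response to light, was at 0.23 (SE 0.105, adjusted p = 0.319). Of the 12 activity-regulated genes, 7 had a negative difference (57.8% of all probe sets), and the median of the list was -0.043. Of 10 general neuron markers 0 were called in 79Q vs. WT (4 lower with an unadjusted p under 0.05, against 8.31% of all probe sets, median -0.057). The lists of other hypothalamic regions held 1 called gene, Hdc, which makes histamine in the tuberomammillary nucleus and fell by 0.81 (SE 0.143, adjusted p = 0.00373). In the paraventricular and supraoptic list 0 of 6 were called with a median of -0.36, and in the arcuate list 0 of 5 with a median of -0.26. With an unadjusted p under 0.05, 3 of the 6 and 1 of the 5 were lower, against 8.31% of all probe sets. At that threshold 2 of 4 mammillary and tuberomammillary genes and 2 of 2 lateral hypothalamus genes (median -0.37) were lower.

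In BACHD mice Grp was the gene of the 10 with the smallest p at both ages. At 2 months its values ran from 8.26 to 8.79 with a median of 8.50 in WT and from 8.47 to 9.18 with a median of 8.82 in BACHD. At 10 months they were 8.87, 8.73 and 8.93 in WT and 9.11, 9.18, 9.25, 9.24 and 9.26 in BACHD. The genotypes overlapped at 2 months, and at 10 months each BACHD array lay above each WT array. The difference was 0.33 at 2 months (SE 0.126, 95% CI 0.055 to 0.60, limma adjusted p = 0.939, exact permutation p = 0.0455) and 0.37 at 10 months (SE 0.0595, 95% CI 0.23 to 0.50, adjusted p = 0.981, exact permutation p = 0.0179, the smallest that 5 arrays against 3 allow). Neither passed over all probe sets, and the smallest adjusted p of any probe set was 0.841 at 2 months and 0.322 at 10 months. The age by genotype term of Grp was 0.039 (SE 0.172, adjusted p = 1.0), with a 95% CI from -0.32 to 0.40. The 10 months difference was 0.34 with the thalamus score as a covariate and 0.31 to 0.41 with each array left out in turn. The 2 months difference was 0.26 to 0.40 with each array left out in turn. At that age the mean thalamus score was -0.16 in BACHD and 0.16 in WT. The highest Grp arrays, BACHD replicates 5 and 7 (9.18 and 9.08), had the lowest scores (-1.02 and -0.84). WT replicate 5, at 8.33 in Grp, also had a low score (-0.72). The part of the score in the 2 months difference of Grp was not tested.

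Nms was higher in BACHD at 10 months, without passing the adjusted threshold. Its WT values were 6.34, 6.91 and 6.47, and its BACHD values were 7.23, 6.79, 6.87, 6.97 and 6.88, so that 1 WT array lay among the BACHD arrays. The difference was 0.37 (SE 0.142, limma adjusted p = 0.997, exact permutation p = 0.0714), and at 2 months it was 0.036 (SE 0.176). Vipr2 (0.26, SE 0.140) and Rgs16 (0.31, SE 0.184) had positive differences at 10 months as well, and with the thalamus score as a covariate that of Rgs16 was 0.061 and that of Vipr2 0.15.

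Vip did not separate the genotypes at either age. At 2 months 2 WT arrays (7.72 and 7.28) and 2 BACHD arrays (7.73 and 7.26) stood about 1 log2 unit above the others, which lay between 6.02 and 6.43 in WT and between 5.93 and 6.31 in BACHD. The mean difference was -0.050 with a wide 95% CI from -0.81 to 0.71. At 10 months the values of Vip were 6.36, 5.81 and 5.75 in WT and 6.13, 5.88, 5.70, 5.68 and 5.70 in BACHD (difference -0.15, SE 0.159). All of them lay below the lowest array median of that age, 7.28. Over all arrays the mean of Vip was at percentile 40.4 of all probe sets and that of Prok2 at 34.7. Prok2, Prokr2, Lhx1, Six6 and Syt10 differed by -0.11 to 0.18 over both ages, with 0 inside each 95% CI.

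By count, limma called 0 of 10 genes, as for all probe sets, at 2 months (0.0%), at 10 months (0.0%) and in the age by genotype term (0.0%). With an unadjusted p under 0.05, 1 of 10 was higher at 2 months (Grp, against 0.872% of all probe sets) and 2 of 10 at 10 months (Nms and Grp, against 2.55%). At 10 months 1 of 10 had groups without overlap with BACHD higher (Grp, against 1.93%). The median of the 10 genes was -0.011 at 2 months, beside -0.034 over all probe sets, and 0.13 at 10 months, beside 0.0071. At 10 months 2 of 10 genes were below 0, beside 46.1% of all probe sets. In none of the lists of SCN, clock, activity-regulated or GABA genes was a gene called at either age. At 10 months the smallest p values among clock genes belonged to Nr1d2 (0.13), Tef (0.15), Arntl (-0.13) and Dbp (0.22, log2 fold changes in parentheses), each with an adjusted p of 0.997.

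**Figure D3:**
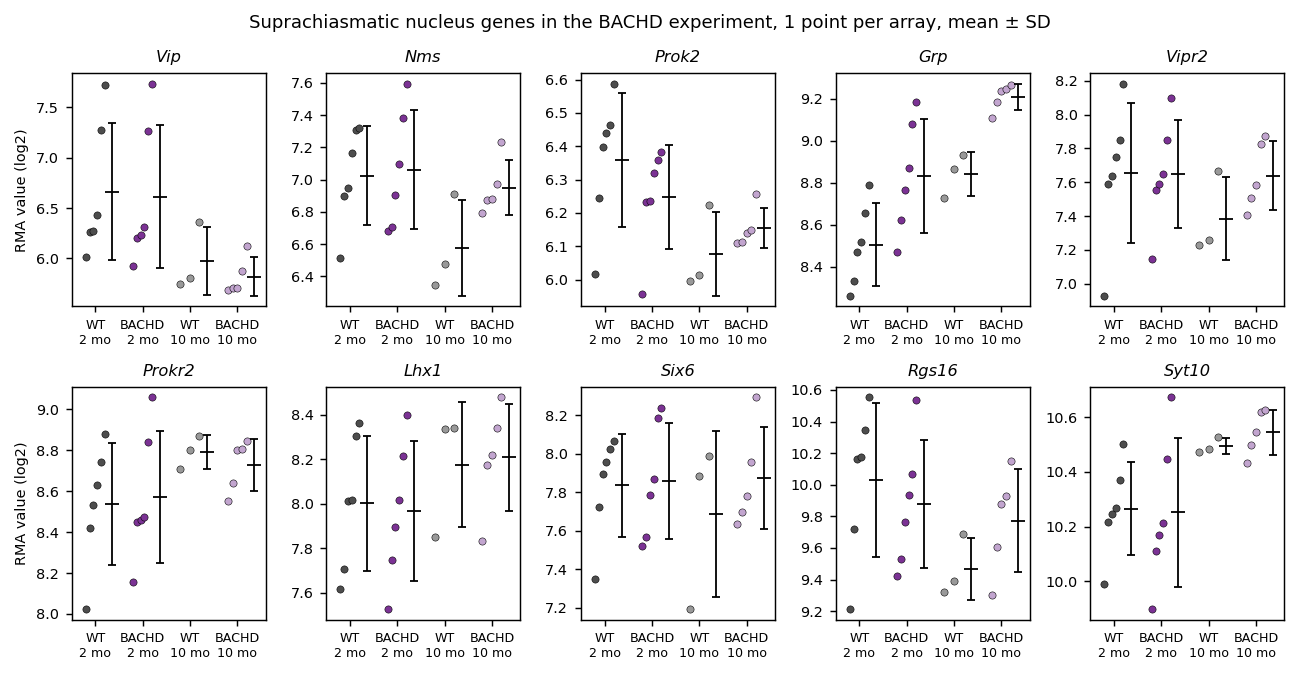
RMA log2 values (y-axis) of the 10 genes in WT and BACHD arrays at 2 and at 10 months of age (x-axis), 1 point per array in order of its value, with the group mean ± SD beside it and a y-axis of its own for each gene. The ages may have been normalized separately, and levels are compared only within an age. Grp separates the genotypes at 10 months, and 4 of the 12 arrays at 2 months, 2 of each genotype, lie high in Vip.

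In 64 of 70 combinations of gene and group, the SD between mice of an SCN gene was above that of the median probe set. The other 6 were Prok2 in 79Q (percentile 39.8 of all probe sets), Prokr2 (40.8) and Syt10 (8.84) in WT at 10 months, and Prok2 (27.1), Grp (29.1) and Syt10 (44.3) in BACHD at 10 months. The median SD of the 10 genes was 0.299 in 18Q, beside 0.113 over all probe sets, and 0.197 beside 0.112 in 79Q. In the WT control arrays it was 0.116 beside 0.0932. At 2 months it was 0.301 beside 0.153 in WT and 0.317 beside 0.141 in BACHD, and at 10 months 0.221 beside 0.0999 and 0.180 beside 0.0908. The SD of Vip was at percentile 74.3 of all probe sets in the WT controls, 99.1 in 18Q, 98.9 in 79Q, 98.6 in WT at 2 months and 99.6 in BACHD at 2 months.

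Part of this spread was shared between the genes. Deviations from group means were correlated for the 36 pairs of the 9 genes other than Vip in each array set. No pooled correlation is given for Vip, whose arrays lay at 2 levels. In the AAV arrays 9 of 36 pairs had an adjusted p under 0.05 (permutation test, Benjamini-Hochberg over 135 relations that also include Vip), all of them positive, with r of 0.66 to 0.90 after the 2 farthest arrays were left out. Without the 4 arrays of high thalamus score 5 of these 9 pairs passed by Pearson's r (adjusted over 36 pairs), and the pairs of Nms with Prokr2 and Six6 and of Syt10 with Prokr2 and Six6 did not. By rank, of these 5 only Nms with Rgs16 passed (rho = 0.88, permutation adjusted p = 0.0234). At 2 months 4 of 36 passed, all positive, and at 10 months 0 of 36. Nms and Syt10 went together in both larger sets, with r = 0.89 (rho = 0.87, permutation adjusted p = 0.0045) in the AAV arrays and r = 0.90 (rho = 0.86, permutation adjusted p = 0.00855) at 2 months, and r = 0.90 and 0.82 without the 2 farthest arrays. Vipr2 and Rgs16 were the other pair that passed in both, with r = 0.87 (rho = 0.84, permutation adjusted p = 0.00675) and r = 0.92 (rho = 0.91, permutation adjusted p = 0.0045), and 0.78 and 0.85 without 2 arrays. At 2 months this r pools arrays at 2 levels of the thalamus score, between which Rgs16 did not overlap. It is not given within either level. In the 14 other AAV arrays r was 0.85 for Nms and Syt10 (rho = 0.68, permutation adjusted p = 0.0366, and 0.144 by rank) and 0.86 for Vipr2 and Rgs16 (rho = 0.81, permutation adjusted p = 0.0304, and 0.0535 by rank). Lhx1 stood outside, and its lowest r in the AAV arrays was -0.62, with Six6.

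**Figure D4:**
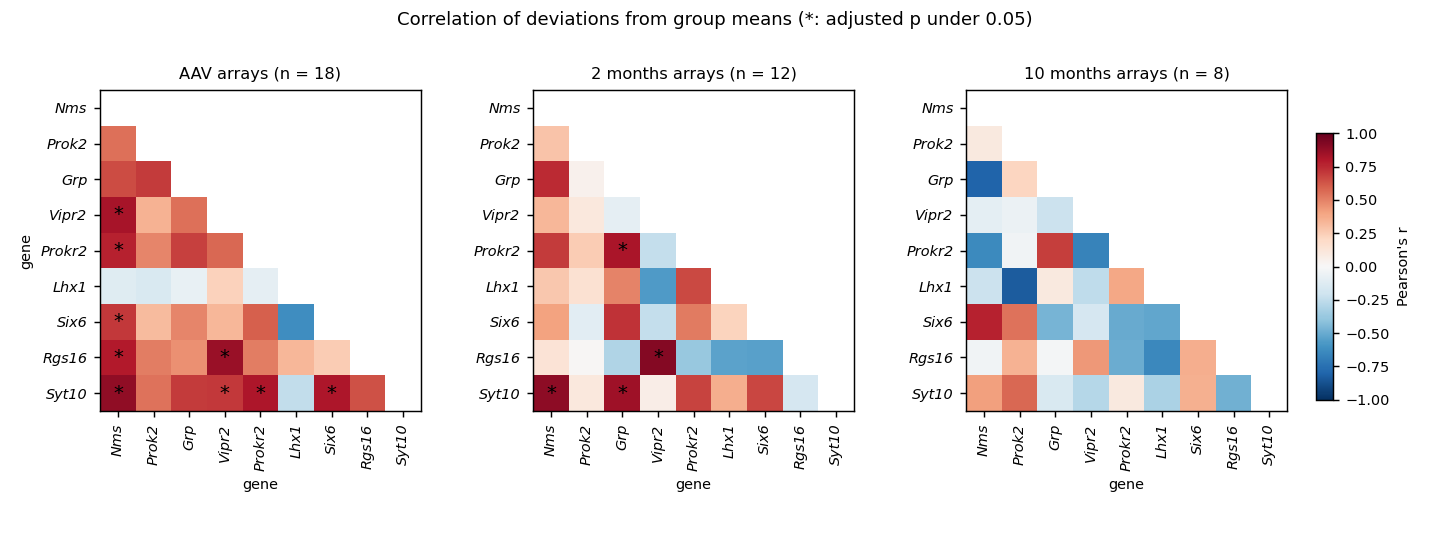
Pearson's r (colour scale from -1 to 1) of deviations from group means between 9 of the genes (both axes), in the 18 AAV arrays, the 12 arrays at 2 months and the 8 at 10 months. Stars mark a permutation adjusted p under 0.05. Starred pairs are 9, 4 and 0 in the 3 sets, and Nms with Syt10 and Vipr2 with Rgs16 are starred in both larger sets.

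Among all named genes, the one most like Nms over the 38 arrays, by r of deviations from group means, was Syt10 (0.85). The next were Npbwr1, a neuropeptide receptor (0.77), and Calcr, the calcitonin receptor (0.76). No such ranking is given for Vip. Vipr2 was most like Rgs16 (0.84), followed by the zinc finger genes Zic2 (0.81) and Zic1 (0.80). Syt10 was most like Calcr (0.89), and 5 genes were closer to it than Nms. For Rgs16, with Zic1 (0.89), Cdk5r1 (0.87) and Zic2 (0.85), 3 genes were closer than Vipr2. For the other genes the closest partner within the 10 ranked lower, behind 8 genes for Prokr2, 29 for Grp, 85 for Six6, 341 for Prok2 and 612 for Lhx1. The genes most like Lhx1 were Kit (0.93), Ctxn3 (0.85) and Adcyap1 (0.84), and those most like Six6 were Avp, which encodes vasopressin (0.82), Sytl4 (0.81) and Nr5a1, a factor of the ventromedial nucleus (0.81). The 38 points share 3 array sets, and these correlations are descriptions.

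Several of the 10 genes went with markers of other regions from array to array. In the AAV arrays the 4 arrays of high thalamus score, which were also the lowest in paraventricular and supraoptic genes and the highest in oligodendrocyte genes, all lay below the mean of the other arrays of their group in 8 genes (Vip, Nms, Grp, Vipr2, Prokr2, Six6, Rgs16 and Syt10). For Prok2 3 of the 4 did so, and for Lhx1 1. They held the 4 lowest of the 18 values of Syt10 (9.92 to 10.01), Six6 and Prokr2, and 3 of the 4 lowest of Vip, Nms and Grp. In 79Q the 3 such arrays were below the other 5 by a mean difference of -0.68 in Vip, -0.54 in Nms, -0.46 in Six6 and -0.35 in Syt10. Since these 4 arrays stood apart, relations to the 3 scores were computed within the other 14, where 0 of 27 relations of the 9 genes other than Vip had an adjusted p under 0.05 (permutation test) and 4 had an unadjusted p under 0.05. Of these 4, those with the paraventricular and supraoptic score had an r of 0.79 for Prok2 and 0.78 for Grp, that of Prok2 with the thalamus score was -0.51, and that of Six6 with the oligodendrocyte score was -0.68.

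At 2 months the direction was the opposite for Rgs16 and Vipr2, which are also expressed in the thalamus. Rgs16 lay at 9.93 to 10.55 in the 7 arrays of high thalamus score and at 9.21 to 9.77 in the other 5, without overlap, and Vipr2 at 7.59 to 8.18 and at 6.93 to 7.65. Since the scores lay at 2 levels, no correlation over the 12 arrays is given. Within the 7 arrays, genotypes pooled and group means not removed, r was 0.86 for Rgs16 (rho = 0.79, exact permutation p = 0.0149, adjusted over 2 relations 0.0149, r = 0.63 without 2 arrays) and 0.90 for Vipr2 (rho = 0.93, exact permutation p = 0.00615, adjusted 0.0123, r = 0.85 without 2 arrays). These were the genes of the 10 whose relation to this score passed over all 12 arrays, which include the 7. The adjustment over 2 relations does not cover that selection. Lhx1, which is also expressed in the mammillary region, followed the score of 4 mammillary and tuberomammillary markers at 2 months (r = 0.90, rho = 0.92, permutation adjusted p = 0.0036 over 180 relations, r = 0.90 without 2 arrays). In the AAV arrays this r was 0.64 (adjusted p = 0.0859, permutation test) and at 10 months 0.86 (adjusted p = 0.117, permutation test). The part of these markers in the genotype comparisons was not tested beyond the covariate fits given above.

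**Figure D5:**
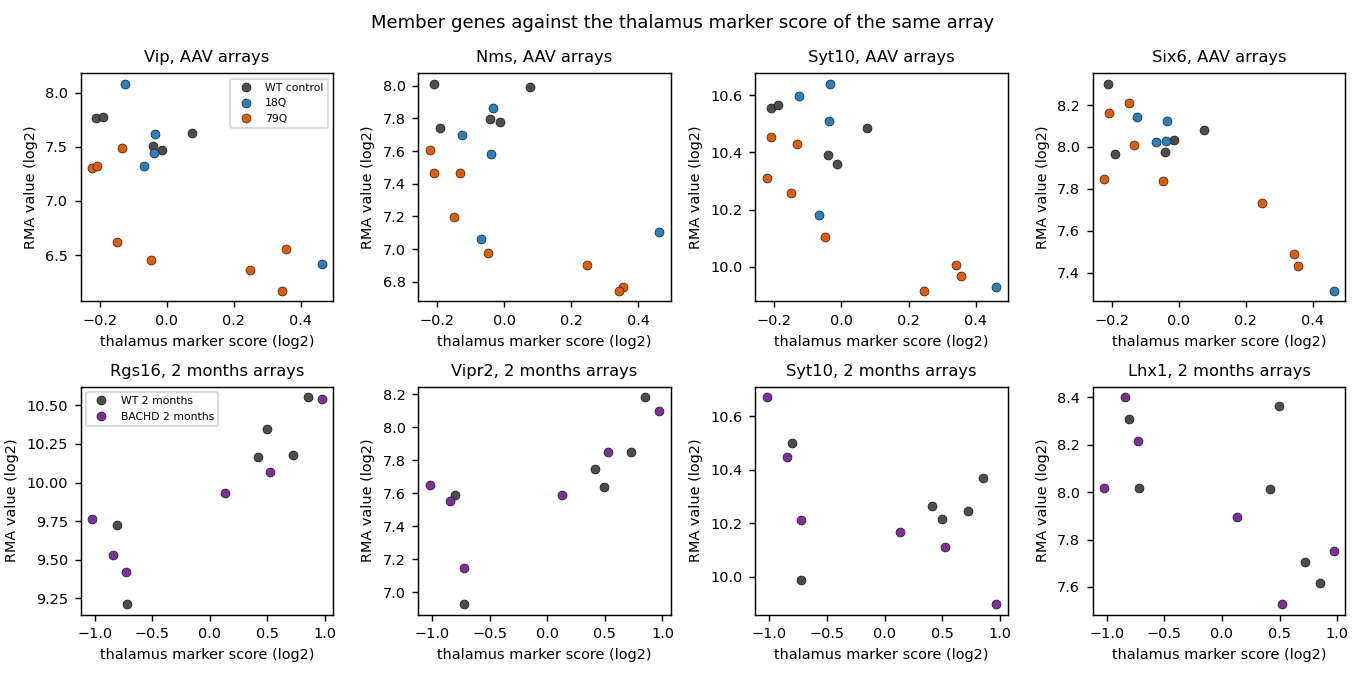
RMA log2 values (y-axes) of Vip, Nms, Syt10 and Six6 in the AAV arrays (top) and of Rgs16, Vipr2, Syt10 and Lhx1 in the 2 months arrays (bottom) against the thalamus marker score of the same array (x-axes, log2 units relative to the mean of the array set), 1 point per array coloured by group. In the AAV arrays 4 points at 0.25 to 0.46 are low in Syt10 and Six6, and at 2 months the 7 arrays of high score are high in Rgs16.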

How the data were processed

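RNA of dissected hypothalamus was hybridized to Affymetrix Mouse Gene ST 1.0 arrays, 38 in all. The authors ran RMA (background correction, quantile normalization, median polish) on the raw files, and the deposited values are on the log2 scale, per the submitters' processing notes with R 4.1.1, affy 1.70.0 and limma 3.48.3. Groups came from the sample labels. Gene symbols came from the platform table, with 21640 probe sets of 1 symbol, 1321 of several and 11799 without. The 10 genes, the gene lists and the comparisons were chosen with earlier results of these data known, so no count over them is independent evidence.

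All 34760 probe sets were fitted with limma 3.58.1 in R 4.3.3 (lmFit, contrasts.fit, eBayes) and p-values were two-sided and adjusted by Benjamini-Hochberg over each contrast. The 18 AAV arrays shared 1 fit, each BACHD age had its own, and the age by genotype term came from a fit over both ages. Exact permutation tests counted every split of the arrays. Correlations used deviations from group means and 100000 permutations within groups (scipy 1.17.1, numpy 2.4.6, Python 3.11.15), with 14 AAV arrays also taken alone, and all permutations within groups for the 10 months arrays. For the 7 arrays of high thalamus score the values were used without removing group means, and all permutations ran across both genotypes. The fit was checked on simulated data. All 10 genes are named, with up to 4 genes of smallest p per list and the 3 genes most like a member. The number of arrays limits the precision, and nothing beyond 1 array per mouse describes how replicates were obtained. Alternatives were centring, a filter on dim probe sets, trended and robust moderation, other samples in the fit, a replicate block and leaving out each array, and, added after the values were seen, the thalamus score as a covariate or its 4 highest AAV arrays left out. Some genes of the lists are not reported here. The lists of anterior pituitary, astrocyte, cerebral cortex and lateral hypothalamus genes held 0 calls in 79Q vs. WT in limma, with 1, 5, 0 and 2 genes at an unadjusted p under 0.05. Of all probe sets 8.31% were lower and 5.65% higher at that threshold.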

Additional observations from a re-analysis of the deposited data

Results flagged for a closer look

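In 60 sets of arrays (10 genes in the 6 groups of 4 or more arrays), 4 held an array far from the rest of its group by Dixon's test, where chance gives about 1 in 20. For Prok2 these were WT control replicate 2, the highest of its group at 6.82 on the log2 scale (next 6.59), BACHD 2 months replicate 1, the lowest at 5.96 (next 6.23), and BACHD 10 months replicate 1, the highest at 6.26 (next 6.15). For Six6, 18Q replicate 3 was the lowest of its group at 7.31 (next 8.02), and the same array had the highest thalamus score of the AAV arrays (0.46).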

How the results depend on the processing

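The number of the 10 genes called stayed at 0 under all alternatives run in 18Q vs. WT, 79Q vs. 18Q, both ages of BACHD and the age by genotype term. In 79Q vs. WT it was 1, and it was 2 with dim probe sets filtered out (Nms and Grp), 2 with the WT control and 79Q arrays alone (Nms and Grp), 2 with the thalamus score as a covariate (Nms and Vip), 0 without the 4 arrays of highest thalamus score, and 0 with a replicate block. Over all probe sets, 202 of 34760 were called lower in the main fit, 345 of 17380 with the filter and 239 with WT control and 79Q alone. That number was 170 with the covariate, 39 without the 4 arrays and 54 with the replicate block. With each array left out in turn, 0 to 2 of the 10 genes and 65 to 288 of all probe sets were called lower. Nms stayed at -0.79 to -0.67 in these fits, was -0.65 with the replicate block (adjusted p = 0.169) and -0.52 without the 4 arrays (adjusted p = 0.149). The last setting leaves out 4 of 18 arrays, and the cause of these changes was not tested. The replicate numbers were taken as names, since arrays of the same number did not deviate together (r from -0.15 to 0.10 in the 5 pairs of 79Q vs. WT, and from -0.31 to 0.28 at 2 months). The filter left no value for Vip, Prok2 and, in the AAV arrays, Vipr2, nor for Vip, Nms and Prok2 in BACHD. Averaging all probe sets of a gene was not run, since each gene has 1.

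Differences near 0 changed sign. With the replicate block these were Prok2 in 18Q vs. WT (-0.016), Lhx1 in 79Q vs. WT (-0.033), Vipr2 in 79Q vs. 18Q (0.030) and Lhx1 at 10 months (-0.10). With arrays centred on their medians they were Lhx1 in 79Q vs. WT (-0.0044) and, at 2 months, Vipr2 (0.041), Lhx1 (0.014) and Syt10 (0.036). With the thalamus score as a covariate they were Lhx1 (-0.0070) and Rgs16 (0.019) in 79Q vs. WT and, at 2 months, Nms (-0.00022), Vipr2 (0.11), Prokr2 (-0.049), Six6 (-0.057) and Rgs16 (0.011). Without the 4 arrays they were Six6 (0.0084) and Syt10 (0.011) in 18Q vs. WT, Rgs16 in 79Q vs. WT (0.071) and Vipr2 in 79Q vs. 18Q (0.047). With each array left out in turn, the ranges that crossed 0 were, in 18Q vs. WT, Prok2 (-0.031 to 0.092), Six6 (-0.20 to 0.0084) and Syt10 (-0.17 to 0.011). In 79Q vs. WT they were Lhx1 (-0.023 to 0.046) and Rgs16 (-0.047 to 0.038), and in 79Q vs. 18Q Vipr2 (-0.10 to 0.052). At 2 months they were Vip (-0.27 to 0.16), Nms (-0.071 to 0.11), Vipr2 (-0.15 to 0.10), Prokr2 (-0.068 to 0.12), Lhx1 (-0.12 to 0.053), Six6 (-0.073 to 0.092) and Syt10 (-0.10 to 0.057). At 10 months they were Vip (-0.27 to 0.041), Lhx1 (-0.13 to 0.13) and Six6 (-0.064 to 0.33). None of these differences was called, and the cause was not tested.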
